A study of Homo sapiens with 48 samples.

Results

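Transient RELA sites that were acetylated without FOSL1 are the 1014 regions, of 11249 in the RELA list after 30 min of TNFα, where RELA was called at 30 min but neither in vehicle nor at 6 h, on chromatin already carrying H3K27ac and free of a FOSL1 region. They were chosen by measured peak calls. A member overlapped, by 1 bp or more, none of the regions called for RELA after 6 h of TNFα, RELA in vehicle, RELB in vehicle, RELB after 6 h of TWEAK or FOSL1 in vehicle, and had a vehicle H3K27ac peak within 500 bp of its RELA summit. The cells were L3.6pl, an established human pancreatic ductal adenocarcinoma line. They received vehicle, TNFα for 30 min or 6 h, or TWEAK for 30 min or 6 h, with no genetic change named in the labels. ChIP-seq measured RELA, RELB and the enhancer and promoter mark H3K27ac in all 5 conditions, and the AP-1 subunit FOSL1 in vehicle alone. The 48 libraries, 3 per antibody and condition, are reported as 16 peak lists, 1 per antibody and condition, each called on merged replicates. No list therefore carries a replicate error, and the read depth behind each list is unknown. The names of the regions in the RELA list at 30 min of TNFα carry the tag of replicate 1 beside the word merged, and whether all 3 replicates entered it could not be settled. In vehicle, 9 of 14 genes listed here as epithelial and pancreatic lineage factors had an H3K27ac peak within 500 bp of a start site, beside 12661 of all 19618 protein-coding genes, so this count does not mark the lineage of the cells.

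TNFα drives the canonical NF-κB pathway: the IκB kinase complex marks IκB inhibitors for destruction, RELA dimers enter the nucleus within minutes, and they bind the κB element. New IκB made from target genes then takes RELA off the DNA, so that binding to many sites is short-lived. TWEAK, through its receptor FN14, drives the noncanonical pathway, in which p100 is processed and RELB dimers accumulate over hours. FOSL1 (FRA-1) belongs to the AP-1 family, which binds TGACTCA or TGAGTCA and occupies many enhancers of epithelial tumour cells.

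Sequences of 7 members with the 10-base NF-κB consensus are given here because the share of regions with a κB element differed between the members and each comparison group described later. Each is the forward strand of hg38, 5′ to 3′. Capitals mark the NF-κB matches, read on either strand, and in FRK also the AP-1 site TGAGTCA. AURKB, FRK, SRF and BCL3 show the 200 bp around the RELA summit. The other members lie where the 200 bp hold untranslated exon sequence, and 30 bp around the match are shown.
AURKB, chr17:8201099-8201298: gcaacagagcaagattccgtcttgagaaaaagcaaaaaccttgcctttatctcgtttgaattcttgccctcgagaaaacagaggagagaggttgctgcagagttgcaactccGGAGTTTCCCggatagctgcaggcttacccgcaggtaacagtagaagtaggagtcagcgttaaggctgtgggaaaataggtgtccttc
FRK, chr6:116034463-116034662: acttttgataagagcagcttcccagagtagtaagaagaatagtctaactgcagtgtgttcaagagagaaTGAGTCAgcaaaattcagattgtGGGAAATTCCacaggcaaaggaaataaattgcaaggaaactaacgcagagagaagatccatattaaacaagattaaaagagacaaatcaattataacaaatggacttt
SRF, chr6:43170818-43171017: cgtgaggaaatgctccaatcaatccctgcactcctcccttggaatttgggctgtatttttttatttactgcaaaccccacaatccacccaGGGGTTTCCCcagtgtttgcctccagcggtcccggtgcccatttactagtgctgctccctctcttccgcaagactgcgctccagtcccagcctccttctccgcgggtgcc
TNIP2, chr4:2798997-2799026: cacggggcctGGGAAACTCCaaagccggcg
DUSP2, chr2:96116685-96116714: gcgtgagcccGGGACTTCCCgcgcccggac
BCL3, chr19:44765095-44765294: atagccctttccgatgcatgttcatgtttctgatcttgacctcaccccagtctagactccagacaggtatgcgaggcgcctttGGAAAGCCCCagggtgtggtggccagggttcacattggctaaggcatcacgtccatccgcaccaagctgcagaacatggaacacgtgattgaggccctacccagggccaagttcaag
TRAF2, chr9:136842658-136842687: ccgaaaggatGGGGAGTCCCCgcccccagg
AURKB and FRK are among the 12 strongest members. SRF is the strongest member that was also in a RELA list the rule did not use. The others are named for the listed gene within 50 kb, and the nearest start site can belong to another gene: SH3BP2 for the TNIP2 member, ADRA2B for the DUSP2 member, CBLC for the BCL3 member and AJM1 for the TRAF2 member. The member at TRAF2 held 2 overlapping matches.

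The members remained after a stepwise removal. Of the 11249 RELA regions at 30 min of TNFα, 5079 overlapped the RELA list at 6 h and 6524 overlapped the FOSL1 list. Removing the regions at 6 h left 6170, removing RELA in vehicle left 6009, removing both RELB lists left 5665 and removing FOSL1 left 3297. A vehicle H3K27ac peak within 500 bp was then present at 1014 and absent at 2283. The 3 groups that differ from the members by 1 criterion each served as comparisons. They were 2110 transient acetylated regions that overlapped FOSL1 (FOSL1-bound), the 2283 transient regions without FOSL1 or H3K27ac (unacetylated), and 338 acetylated FOSL1-free regions that RELA still occupied at 6 h (sustained).

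The borders of the rule were soft at FOSL1 and H3K27ac and sharper at RELA. The 5 members with the H3K27ac peak farthest from the summit had it at 487 to 498 bp, and the 5 nearest regions outside had it at 505 to 529 bp. The H3K27ac peak covered the summit itself at 692 of the 1014 members. FOSL1 regions came as close as 0 to 3 bp to the 5 nearest members without sharing a base, while the 5 FOSL1-bound regions with the least overlap shared 1 to 5 bp. A FOSL1 region lay within 500 bp of 341 members (33.6%) and within 5000 bp of 659 (65.0%). FOSL1-free thus describes the RELA region and not its surroundings, and requiring 500 bp of distance from every excluded list left 667 members. The nearest RELA region at 6 h lay 94 to 159 bp away at the 5 closest members. It lay within 500 bp at 34 members and within 50000 bp at 299 (29.5%). The median distance was 144581 bp.

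RELA enrichment at the members was modest. RELA fold enrichment is that of ChIP over input at the summit, as the peak caller gave it. It ran from 2.64 to 16.1 with a median of 5.50 and quartiles of 4.71 and 6.93. The medians were 5.08 in FOSL1-bound regions, 5.77 in unacetylated regions and 8.70 in sustained regions. The members were 129 to 633 bp long with a median of 180 bp, against 246 bp for sustained regions. The H3K27ac lists hold broad peaks without a summit, so H3K27ac folds here are not summit values and are not comparable with those of RELA. The vehicle H3K27ac peak at the members stood at a median percentile of 55.3 by fold enrichment within its list and was 1208 bp long. This was close to the 54.7 and 1207 bp of sustained regions and below the 65.1 and 1405 bp of FOSL1-bound regions. These values come from the lists that chose the members and are given as a description without a test.

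**Figure D1:**
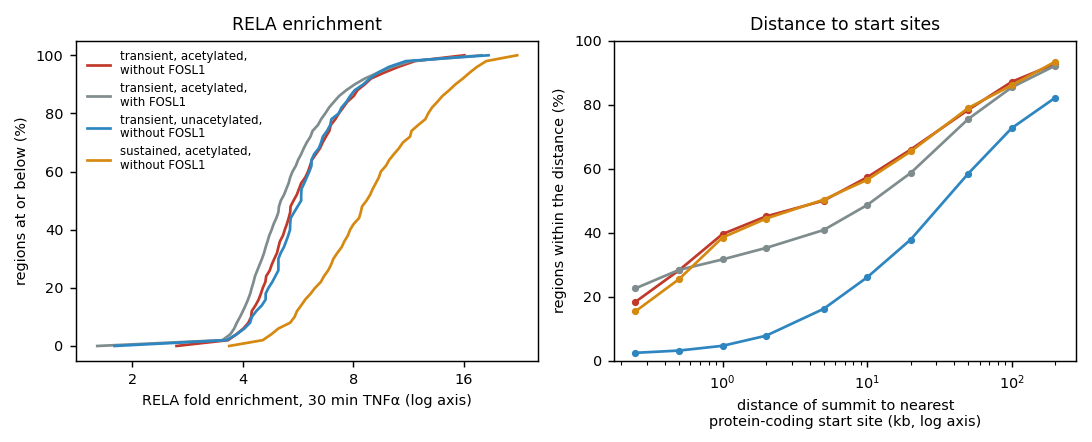
The left panel gives the share of regions (%) at or below each RELA fold enrichment after 30 min of TNFα (log axis), and the right panel the share with the summit within a distance of a protein-coding start site (kb, log axis), for the members and the 3 comparison groups. The sustained regions, with a median fold of 8.70, lie right of the members (5.50), and the members' distances follow those of sustained regions, with 39.5% and 38.5% within 1 kb.

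The strongest members lay at genes of varied function. RAB3IP, which encodes an exchange factor for RAB8, had the highest RELA enrichment, 16.1-fold, with the summit 241 bp downstream of its start site in untranslated exon sequence. Its H3K27ac peak had a fold of 4.21 in vehicle, 4.70 and 4.15 after 30 min and 6 h of TNFα, and 4.70 and 4.92 after 30 min and 6 h of TWEAK. The peak was thus called in all 5 lists at similar fold. At AURKB, the Aurora B kinase of mitosis, a 15.1-fold region lay 6168 bp downstream of the start site in intergenic sequence. Its H3K27ac fold was 3.06 in vehicle and 2.74 after 30 min of TNFα, and no peak was called at 6 h of TNFα or after either time of TWEAK. The acetylation at AURKB was thus called in 2 of 5 lists.

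FRK, a SRC-related tyrosine kinase, held a 12.9-fold region 26328 bp downstream of its start site, in an intron. This was the member among the 12 strongest that held both an NF-κB and an AP-1 match, 22521 bp from the nearest FOSL1 region. Its H3K27ac fold was 2.46 in vehicle, 3.47 after 30 min of TNFα, 2.94 after 6 h, 2.88 after 30 min of TWEAK and 3.15 after 6 h, so that vehicle was the lowest of the 5. PPP1R15A (GADD34), the stress-induced phosphatase subunit that acts on eIF2α, had the smallest q among these 12, with a −log10 q of 68.5 and 14.5-fold enrichment 82 bp from its start site. It held no NF-κB consensus within its 200 bp. Its H3K27ac fold lay between 3.69 and 4.31 in the 5 lists.

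Among the other strongest members, ST3GAL4, a sialyltransferase, had a 14.7-fold region 486 bp from its start site. MIS18A, which helps load CENP-A at centromeres, had a 12.6-fold region 204 bp upstream. TEF, a PAR bZIP transcription factor, had a 13.1-fold region 948 bp upstream. SNAPC1, a subunit of the snRNA activating complex, had a 14.4-fold region 1129 bp into the gene. Another 3 were a 15.1-fold region 39137 bp upstream of EFCAB14, a 13.6-fold region 132217 bp upstream of the protease gene TLL1, and a 12.8-fold region at C10orf105. The NF-κB consensus was present at 3 of the 12 strongest members (RAB3IP, AURKB and FRK) and absent at 9. Tandem repeats were left out of this ranking. They held 39 of the 1014 members (3.85%), against 2945 of all 11249 RELA regions (26.2%). The share was 2.61% in FOSL1-bound, 9.77% in unacetylated and 2.96% in sustained regions, so a low share was not particular to the members. All RELA regions include those also called for RELA or RELB in vehicle, which the rule removed. The part of this in the contrast was not tested.

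Which other NF-κB lists saw the members was asked first, since the rule did not use RELA after TWEAK, RELB after TNFα or RELB after 30 min of TWEAK. The members were nearly absent from these 5 lists. Only 6 of 1014 (0.592%, exact 95% interval 0.217 to 1.28%) were in 1 or more of them, whereas 29.2% of all RELA regions at 30 min of TNFα were. That background still holds regions called for RELA or RELB in vehicle, which the rule removed. The contrast with it is therefore in large part set by the rule. Per list, 2 members were in RELA at 30 min of TWEAK, 2 in RELA at 6 h of TWEAK, 1 in RELB at 30 min of TNFα, 3 in RELB at 6 h of TNFα and 1 in RELB at 30 min of TWEAK. Sustained regions were in such a list at 33 of 338 (9.76%), and 29 of these were in RELA at 30 min of TWEAK. Sustained regions are defined by a second RELA list, so a higher share there is partly set by the rule. The odds ratio of members against sustained regions was 0.0550 (two-sided Fisher's exact test, Benjamini-Hochberg adjusted over 20 tests, p = 1.13e-14). Against unacetylated regions (35 of 2283, 1.53%) it was 0.382 (exact adjusted p = 0.0398), and against FOSL1-bound regions (27 of 2110, 1.28%) it was 0.459 (exact adjusted p = 0.116), with an interval of 0.155 to 1.14. All such tests here compare regions of these lists, which are not replicates of a condition. The difference from unacetylated regions missed the threshold under 4 alternatives, among them regions over 1 kb from a start site (odds ratio 0.503, exact adjusted p = 0.275). All 35 unacetylated regions in such a list lay in tandem repeats. Outside repeats, 2 of 975 members and no unacetylated region were in such a list. The direction thus turned there, and no finite odds ratio could be given.

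Of the 6 members in such a list, 4 lay in tandem repeats. These were intergenic regions, among them 1 with AQP7B as its nearest gene, 961080 bp away, and 1 with ZNF254, 2416405 bp away. The fifth, with ANKRD20A1 as its nearest gene, was in 3 lists at a 30-min TNFα fold of 4.85. The sixth was at SRF, the serum response factor that drives immediate early genes with its cofactors. It was 410 bp long with 12.2-fold RELA enrichment at 351 bp upstream of the start site, and it was in RELA at 30 min of TWEAK. A FOSL1 region lay 28 bp from it. Its H3K27ac fold was 3.79 in vehicle, 2.69 and 3.43 after 30 min and 6 h of TNFα, and 2.54 and 3.29 after 30 min and 6 h of TWEAK. Vehicle was thus the highest of the 5 lists at SRF.

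H3K27ac remained called at nearly all members under treatment. A peak within 500 bp of the summit was present after 30 min of TNFα at 990 of 1014 members (97.6%, exact 95% interval 96.5 to 98.5%), where 96.6% of all RELA regions with vehicle H3K27ac kept theirs. After 6 h of TNFα it was present at 968 (95.5%, 94.0 to 96.7%, background 95.9%), after 30 min of TWEAK at 930 (91.7%, 89.9 to 93.3%, background 94.2%) and after 6 h of TWEAK at 920 (90.7%, 88.8 to 92.4%, background 93.2%). The peak was called in all 4 treatments at 860 members (84.8%) and in none at 8. The rule required a vehicle peak of every member, so the other lists could only lack one. The most frequent missing calls were at 6 h of TWEAK alone (43 members), at 30 min of TWEAK alone (37) and at both (19). The vehicle list held 55.5 Mb, the TNFα lists 45.1 Mb (30 min) and 55.5 Mb (6 h), and the TWEAK lists 46.9 Mb and 46.4 Mb. How far these missing calls reflect the extent of a list or peaks near the calling cutoff was not tested.

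Compared with FOSL1-bound regions, the members kept H3K27ac less often in 3 of the 4 treatments. After 6 h of TNFα the share was 95.5% against 98.9% (odds ratio 0.242, exact adjusted p = 3.56e-08). It was 91.7% against 97.8% after 30 min of TWEAK (odds ratio 0.252, exact adjusted p = 1.29e-13) and 90.7% against 97.3% after 6 h of TWEAK (odds ratio 0.272, exact adjusted p = 6.18e-14). After 30 min of TNFα it was 97.6% against 98.5% (odds ratio 0.615, interval 0.347 to 1.10, exact adjusted p = 0.109). That difference passed the threshold within deciles of RELA enrichment (Mantel-Haenszel odds ratio 0.521). The vehicle peaks of FOSL1-bound regions were also stronger and longer, as given above, and the part of this in the difference was not tested. When an H3K27ac peak had to overlap the RELA region itself, the odds ratio was 0.793 at 6 h of TNFα (exact adjusted p = 0.262) and 0.854 at 6 h of TWEAK (exact adjusted p = 0.290), while at 30 min of TWEAK it was 0.545 and still passed the threshold. Against sustained regions no treatment passed the threshold, with odds ratios of 1.26 and 0.445 for 30 min and 6 h of TNFα and 1.28 and 0.918 for 30 min and 6 h of TWEAK. Their intervals were wide, 0.168 to 1.01 at 6 h of TNFα and 0.572 to 1.44 at 6 h of TWEAK, and within deciles of RELA enrichment the ratio at 30 min of TNFα was 3.00 and passed the threshold.

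The share that kept a peak was higher near start sites in each treatment, a split given without a test. Of the 401 members within 1 kb of a protein-coding start site, 99.3% and 99.0% kept a peak after 30 min and 6 h of TNFα, and 97.5% and 98.8% after 30 min and 6 h of TWEAK. Of the 613 others, 96.6%, 93.1%, 87.9% and 85.5% did. Among these distal regions alone the differences from FOSL1-bound regions passed, with odds ratios of 0.211 at 6 h of TNFα and 0.211 at 6 h of TWEAK. Members with and without the NF-κB consensus gave similar values, 94.9% against 95.9% at 6 h of TNFα and 89.8% against 91.4% at 6 h of TWEAK.

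**Figure D2:**
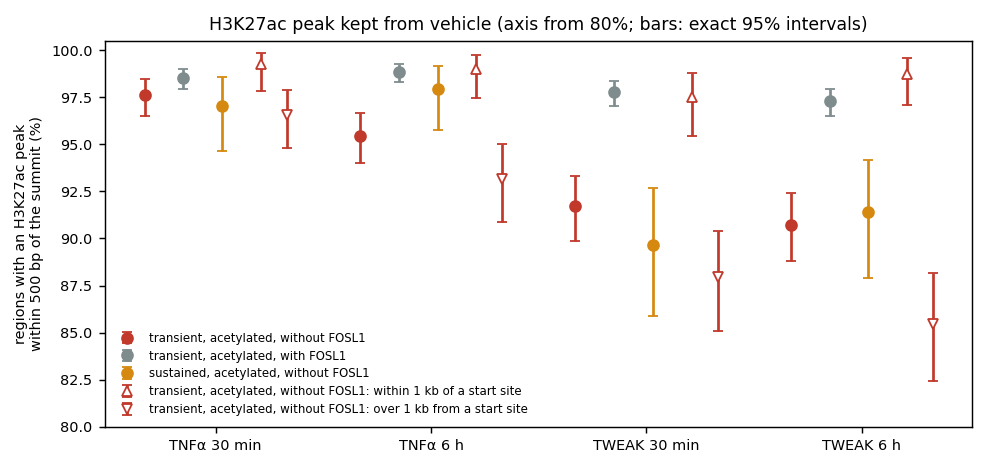
Share of regions (%, axis from 80%) that had an H3K27ac peak within 500 bp of the summit after each treatment, among regions that had one in vehicle, with exact 95% intervals over regions. Filled circles are the members (red), FOSL1-bound (grey) and sustained (orange) regions. Open triangles split the members by distance to a start site, and the distal members fall to 85.5% at 6 h of TWEAK while those at start sites stay at 98.8%.

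The length of H3K27ac around the members differed between the lists, in most of them to much the same degree as at all acetylated RELA regions. In the 2 kb centred on the summit, H3K27ac peaks covered a median of 1051 bp in vehicle, 1231 bp after 30 min of TNFα, 1146 bp after 6 h of TNFα, 1058 bp after 30 min of TWEAK and 955 bp after 6 h of TWEAK. Coverage was longer than in vehicle at 59.0% of the members after 30 min of TNFα and shorter at 39.7%. Over all 6761 RELA regions with vehicle H3K27ac it was longer at 53.0% and shorter at 45.0%. In FOSL1-bound regions it was longer at 47.8% and shorter at 49.3%, and in sustained regions longer at 66.6%. After 6 h of TNFα it was longer at 54.6% of members, 54.5% of all acetylated RELA regions, 47.5% of FOSL1-bound and 74.9% of sustained regions. After 30 min of TWEAK it was shorter at 58.7% of members and 57.3% of all acetylated RELA regions. After 6 h of TWEAK it was shorter at 761 of 1014 members, 5013 of the 6761 acetylated RELA regions, 1630 of 2110 FOSL1-bound regions and 240 of 338 sustained regions. The lists themselves differ in extent, with 55.5 Mb of H3K27ac in vehicle, 45.1 Mb and 55.5 Mb after 30 min and 6 h of TNFα, and 46.9 Mb and 46.4 Mb after 30 min and 6 h of TWEAK. How far the extent of a list enters the coverage was not tested. These shares are given without a test.

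The members lay closer to genes than most RELA regions. The summit was within 1 kb of a protein-coding start site at 401 members (39.5%, exact 95% interval 36.5 to 42.6%), where 16.8% of all RELA regions at 30 min of TNFα were. The share was 4.60% in unacetylated regions (odds ratio 13.6, exact adjusted p = 5.47e-134), 31.6% in FOSL1-bound regions (odds ratio 1.42, exact adjusted p = 2.70e-05) and 38.5% in sustained regions (odds ratio 1.05, interval 0.807 to 1.36, exact adjusted p = 0.748). H3K27ac marks promoters and the rule required it of the members. The contrasts with unacetylated regions and with all RELA regions are thus partly set by the rule. Tandem repeats were also more frequent among all RELA regions (26.2%, against 3.85% of members), and their part in that contrast was not tested. With 500 bp in place of 1 kb, the odds ratio against FOSL1-bound regions was 0.993 (exact adjusted p = 0.966), so that this difference rests on regions between 500 bp and 1 kb from a start site. It was also lost when lists within 500 bp counted as overlapping (odds ratio 1.09, exact adjusted p = 0.407). Of the 401, 216 had the summit upstream of the start site and 186 had it within 250 bp. Over all 1014 members, 49.6% of summits lay in introns, 41.1% between genes, 7.79% in untranslated exons and 1.48% in coding exons. At 219 members (21.6%) the nearest start site was over 50 kb away. The 200 bp around the summit had a median GC content of 53.5%, against 56.0% in FOSL1-bound, 45.5% in unacetylated and 54.3% in sustained regions.

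The κB element was more common at the members than at FOSL1-bound regions. The 10-base NF-κB consensus, searched on both strands of the 200 bp around the summit, was present at 432 of 1014 members (42.6%, exact 95% interval 39.5 to 45.7%), while 34.8% of all RELA regions at 30 min of TNFα and 4.05% of 200-bp windows at the start sites of all protein-coding genes held it. Tandem repeats made up 26.2% of all RELA regions but 3.85% of the members. The share with the consensus among all RELA regions outside repeats was not taken, so the 34.8% does not show enrichment at the members. FOSL1-bound regions held the consensus at 16.2% (odds ratio 3.85, exact adjusted p = 3.36e-54). Unacetylated regions held it at 51.8% (odds ratio 0.691, exact adjusted p = 2.94e-06) and sustained regions at 69.2% (odds ratio 0.330, exact adjusted p = 8.98e-17). The order from high to low was sustained, unacetylated, members and FOSL1-bound, and the members differed from each of the other groups. Sustained regions also had higher RELA enrichment, and within deciles of that enrichment the Mantel-Haenszel odds ratio against them was 0.350, still past the threshold. With the looser pattern of GGG and CC 5 bases apart, which overlaps the consensus, 71.5% of members and 68.1% of unacetylated regions held a match (odds ratio 1.17, exact adjusted p = 0.0783), and the direction of that difference turned. That pattern is present at 56.0% of all RELA regions and 55.6% of start-site windows.

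Near start sites 47.1% of members held the consensus, and elsewhere 39.6% did. Both were above the FOSL1-bound regions in the same place, with odds ratios of 2.95 and 4.44. With the members split into 4 equal groups by RELA enrichment, 31.5% of the weakest group held it, and the next groups had 46.2%, 49.2% and 43.5%. The share thus did not climb further in the strongest group. The centre of the nearest match lay a median of 19.5 bp from the summit at the members and within 25 bp at 268 of 432 (62.0%). The median was 21.5 bp in FOSL1-bound, 16.5 bp in unacetylated and 14.5 bp in sustained regions. The members held 46 different versions of the 10 bases. GGGAAATTCC was at 50 members, GGGAATTTCC at 49, GGGAAACCCC at 36 and GGGGATTTCC at 31, counted once per member and strand pair.

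**Figure D3:**
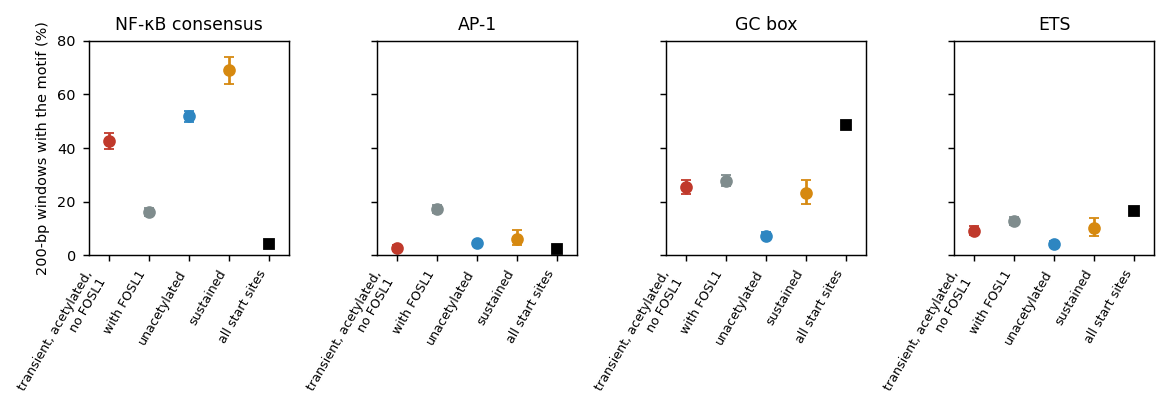
Share (%) of 200-bp windows that hold each motif, with exact 95% intervals, for the members, the 3 comparison groups of RELA regions and the start sites of all protein-coding genes (black squares). The members hold the NF-κB consensus at 42.6% and AP-1 at 2.56%, the FOSL1-bound regions at 16.2% and 17.3%.

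**Figure D4:**
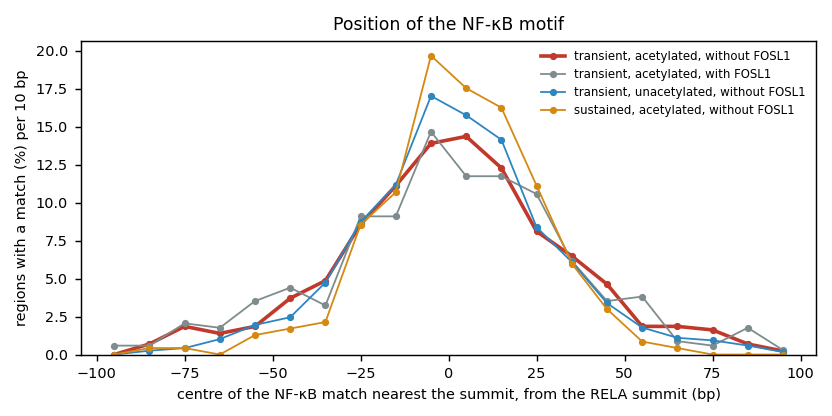
Distance (bp) from the RELA summit to the centre of the nearest NF-κB match, as the share (%) of regions with a match per 10 bp, in the members and the 3 comparison groups. Matches crowd within 25 bp of the summit in all groups, at 62.0% of the members and 73.9% of the sustained regions with a match.

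The AP-1 site (TGACTCA or its reverse complement TGAGTCA) was rare at the members. It was present at 26 of 1014 (2.56%, exact 95% interval 1.68 to 3.74%), against 11.2% of all RELA regions at 30 min of TNFα and 2.36% of start-site windows. FOSL1-bound regions held it at 17.3% (odds ratio 0.126, exact adjusted p = 1.87e-37). FOSL1 binds this site and the rule split these groups by FOSL1, so the direction of this difference is largely set by the rule. The same holds for all RELA regions, of which 6524 of 11249 overlapped FOSL1. Unacetylated regions held the AP-1 site at 4.60% (odds ratio 0.546, exact adjusted p = 0.00835) and sustained regions at 6.21% (odds ratio 0.397, exact adjusted p = 0.00550). The difference from FOSL1-bound regions passed under every alternative tried, but each of these kept the split by FOSL1 and so adds no support. The difference from unacetylated regions missed the threshold under 5 alternatives, with an odds ratio of 0.766 (exact adjusted p = 0.421) over 1 kb from a start site. The difference from sustained regions missed it under 2, and within 1 kb of a start site it turned to 1.30, resting on 4 of 401 against 1 of 130 regions. Only 12 of the 432 members with the NF-κB consensus also held AP-1.

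Among motifs of general promoter and enhancer factors, the GC box GGGCGG, bound by SP factors, was present at 25.4% of members, 27.8% of FOSL1-bound, 7.40% of unacetylated and 23.4% of sustained regions, with 14.9% of all RELA regions and 48.4% of start-site windows. Within the members it was at 44.4% of those within 1 kb of a start site and 13.1% of the rest. The ETS core CCGGAA was at 9.17% of members, 12.8% of FOSL1-bound, 4.29% of unacetylated and 10.1% of sustained regions. It was at 6.94% of all RELA regions and 16.4% of start-site windows. The TEAD site GGAATG was at 12.3% of members, 18.7% of FOSL1-bound, 15.7% of unacetylated and 12.7% of sustained regions. It was at 17.4% of all RELA regions and 7.44% of start-site windows. These motifs were searched on both strands, can overlap with one another and are given without a test.

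In terms of genes, 1711 of 19618 protein-coding genes (8.72%) had a member within 50 kb of a start site, and 1545 of them had a single member. Among the 12661 genes with an H3K27ac peak at a start site in vehicle the share was 10.9%. Proximity to a gene is not a measure of its regulation. Survival and apoptosis regulators had a member at 6 of 12 genes. CFLAR (c-FLIP), the caspase-8 inhibitor, had an 8.54-fold region 44 bp from a start site. TNFRSF10B, a TRAIL receptor, had a 6.37-fold region 525 bp from a start site. PMAIP1 (NOXA), a BH3-only protein, had a 5.39-fold region 8579 bp downstream, and GADD45B, a stress sensor of the GADD45 family, a 5.03-fold region 306 bp upstream. The last 3 held the NF-κB consensus. Within 10 kb, 5 of the 12 genes had a member.

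Immediate early genes and MAPK phosphatases had a member at 8 of 23 genes within 50 kb, but at 1 of 23 within 10 kb. That gene was IER2, with an 8.35-fold region 992 bp downstream of its start site. The others stood farther away, with 7.31-fold at 28797 bp from the phosphatase gene DUSP2, 6.72-fold at 26086 bp upstream of KLF6 and 6.30-fold at 37536 bp from KLF10. The IκB and feedback genes had a member at 3 of 13. TNIP2 (ABIN-2), a partner of A20, was 42638 bp from the 11.9-fold region shown above, which lies at the start site of SH3BP2. BCL3, an atypical IκB, had a 7.06-fold region 13874 bp downstream, and ZC3H12A (Regnase-1), an RNase for inflammatory mRNAs, a 5.29-fold region 2615 bp upstream. Of 5 NF-κB subunit genes, RELA had a member, 6.78-fold, at 21733 bp.

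Of 20 receptor and adaptor genes, 2 had a member. IKBKB, the kinase IKKβ, had an 8.10-fold region with the NF-κB consensus 304 bp upstream of a start site. TRAF2, the adaptor of TNF receptors, had a 5.92-fold region 39261 bp upstream. Cytokines and chemokines had a member at 4 of 21, with CXCL16 at 576 bp (5.66-fold), CXCL3 and CXCL5 sharing a 5.57-fold region, and CXCL8 at 35826 bp (4.21-fold, a −log10 q of 2.77). The H3K27ac peak at the CXCL16 member was called in vehicle and after no treatment, and that at the TRAF2 member was not called after 30 min of TNFα. Interferon and antigen presentation genes had a member at 4 of 14, namely IRF1 (5.77-fold), ISG20 (5.60-fold), IRF9 (5.37-fold) and B2M (5.00-fold). Of these 4, ISG20 had it within 10 kb. Of 14 epithelial and pancreatic lineage factors, ELF3, an epithelial ETS factor, had one (5.69-fold, 35965 bp). These lists are short, neighbouring genes share members, and the shares are given as descriptions beside the 8.72% of all genes.

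The study's own gene lists came from RNA-seq of PDAC cells and were matched by symbol. Of its TNFα-specific genes, 263 were protein-coding here, and 58 (22.1%) had a member within 50 kb. Of its list of common genes, which by the study also takes in the smaller TWEAK-specific group, 55 of 490 (11.2%) did. Among genes with H3K27ac at a start site in vehicle, the shares were 23.2% and 11.7%, beside 10.9% of all such genes. Within 10 kb, 11.0% and 4.90% of the full lists had a member, beside 3.71% of all genes. Restricted to genes with vehicle H3K27ac, the shares within 10 kb were 11.6% and 4.91%, beside 5.18% of all such genes. The common list thus did not exceed that background within 10 kb. The strongest members at TNFα-specific genes were at PAOX, a polyamine oxidase (12.8-fold, 312 bp from the start site, in tandem repeats), NAB2, a co-repressor of EGR factors (11.8-fold, 2454 bp upstream), NUAK2, an AMPK-related kinase (11.8-fold, 2061 bp downstream), and PIEZO1, a mechanosensitive channel (11.1-fold, 475 bp downstream). At common genes they were at PPP1R15A, GBP1, an interferon-inducible GTPase (11.3-fold, 46 bp upstream), SMAD3, a TGF-β effector (10.8-fold, 39605 bp upstream), and FOXI3 (9.12-fold, 29538 bp upstream). The H3K27ac peak at NUAK2 was not called after 30 min of TWEAK and that at FOXI3 not after 6 h of TWEAK. The other 6 had it in all 5 lists.

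**Figure D5:**
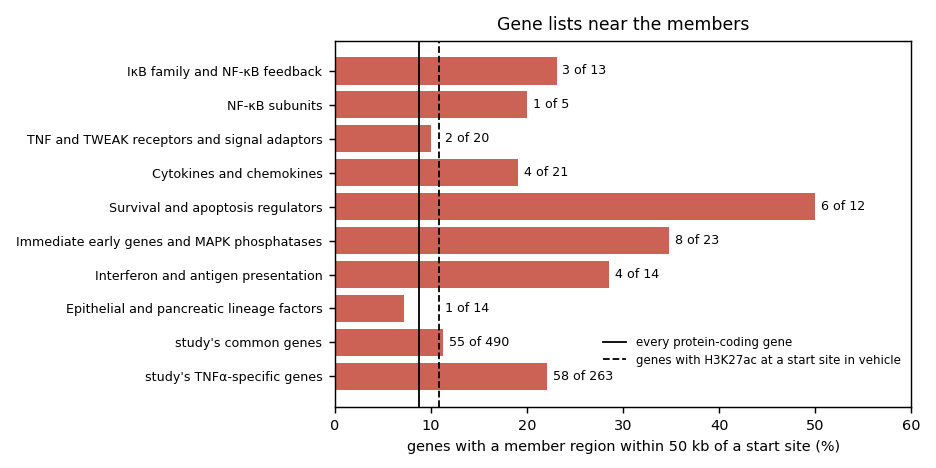
Share (%) of the genes of each list that have a member region within 50 kb of a start site, with the counts beside the bars. The solid line marks every protein-coding gene (8.72%) and the dashed line genes with H3K27ac at a start site in vehicle (10.9%). The TNFα-specific list stands at 22.1% and the common list at 11.2%.

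The members were spread over the genome, from 14 on chromosome 21 to 94 on chromosome 1. By length, chromosome 19 held 0.768 and chromosome 17 held 0.745 members per Mb, and chromosome 13 held 0.140. The 7 genes with the most members within 50 kb had 4 each and fell into 2 neighbourhoods on chromosome 17. The first holds ACBD4, HEXIM1, HEXIM2 and PLCD3, where the strongest member was 6.79-fold. HEXIM1 and HEXIM2 encode inhibitors of the elongation factor P-TEFb. The second holds VAMP2, TMEM107 and 1 unnamed gene, and its strongest member is the 15.1-fold AURKB region shown above.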

How the data were processed

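The 48 libraries were grouped by their labels into 16 antibody and condition groups of 3. The authors mapped paired-end reads to hg38 with Bowtie2 2.5.0 and called narrow (RELA, RELB, FOSL1) or broad (H3K27ac) peaks with MACS2 against input at a stated cutoff of 0.05, on merged replicates. Per the deposited lists, each region carries a fold enrichment over input (a linear ratio) and a −log10 q value. Both were used, and the score and −log10 p columns were not. Depth is not in these files, so intervals cover the counting of regions only.

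Regions on chromosomes 1 to 22 and X were intersected (1 bp) in Python 3.11.15. Nearest start sites and exons came from GENCODE 44 protein-coding genes, and sequences from the hg38 reference. Shares have exact (Clopper-Pearson) 95% intervals. Groups were compared by Fisher's exact test, two-sided, with SciPy 1.17.1, Benjamini-Hochberg adjusted over 20 tests at 0.05. The code was tested on simulated data. Tandem repeats are regions whose 1000 bp around the summit match themselves at 0.4 or more of bases at a shift of up to 400 bp. Strongest members were the 12 with the highest fold outside such repeats. Genes of 8 lists and the study's 2 lists were counted within 50 kb, naming up to 4 by fold. The members, lists and tests were chosen with earlier results of these data known. A few regions are not reported here by name or sequence.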

Additional observations from a re-analysis of the deposited data

How the results depend on the processing

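No paired analysis was possible because each condition has 1 list called on merged replicates, and leaving out a replicate was not possible for the same reason. Of the 181 alternative values, 154 kept their direction and side of the threshold (for counts, within 1.5 times). The values that follow are the others, as odds ratios of members against the group named, and the cause of each change was not tested except where fewer regions entered. The number of members was 667 when lists within 500 bp counted as overlapping and 613 over 1 kb from a start site.

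For the lists the rule did not use, against unacetylated regions, the ratio was 0.424 at a q of at most 0.001, 0.553 at a fold of at least 5, 0.335 with H3K27ac on the region itself and 0.503 over 1 kb from a start site, none of them past the threshold. Outside tandem repeats no unacetylated region was in such a list, so the ratio had no finite value and was not counted above. For H3K27ac kept with H3K27ac on the region itself, it was 1.04 (30 min of TNFα), 0.793 (6 h of TNFα) and 0.854 (6 h of TWEAK) against FOSL1-bound regions. With lists within 500 bp counted as overlapping it was 0.351 for 30 min of TNFα against FOSL1-bound regions, now past the threshold, and 0.926 against sustained regions. Within deciles of RELA enrichment, 30 min of TNFα gave 0.521 against FOSL1-bound and 3.00 against sustained regions, both now past the threshold, and 6 h of TWEAK gave 1.06 against sustained regions. With the other narrow lists at a q of at most 0.001, 6 h of TNFα gave 0.383 against sustained regions, now past it.

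For start sites the ratio was 1.09 with lists within 500 bp and 0.993 with 500 bp to the start site against FOSL1-bound regions, and 0.971 within deciles against sustained regions. For the NF-κB consensus against unacetylated regions it was 1.17 with the looser pattern and 0.594 within 1 kb of a start site. For AP-1 against unacetylated regions it was 0.627 with lists within 500 bp, 0.586 with H3K27ac on the region itself, 0.766 over 1 kb from and 0.254 within 1 kb of a start site, and 0.763 in 100 bp around the summit. Against sustained regions it was 0.499 with H3K27ac on the region itself and 1.30 within 1 kb of a start site. The motif splits at start sites within 1 kb were chosen after seeing the data. Narrow lists differ in length, from 2383 to 58828 regions, and how far a missing region reflects the depth of its list was not tested.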
